A study of Mus musculus with 6 samples.

Results

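Transcript levels of 9 small leucine-rich proteoglycan genes and of Dpt were followed in C2C12 cells, an established mouse myoblast line, with and without forced expression of Msx1. The 10 genes (Dcn, Bgn, Aspn, Fmod, Lum, Prelp, Omd, Ogn, Podn and Dpt) were listed by name as members of the family, with earlier results of these data known, out of 24809 genes, and 9 of them passed the minimum level for testing. One group was the control genotype, measured in columns headed with a vector's name (n = 3 libraries), and the other was the Msx1 overexpression genotype (n = 3 libraries). All libraries came from C2C12 myoblasts. The sources used here do not say how Msx1 was introduced, whether the cells were a clone or a pool, or at which stage and density they were harvested. Since nothing in the labels ties the libraries to separate cultures, p-values speak only of the spread between these samples, and that spread may be technical.

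Small leucine-rich proteoglycans are secreted matrix proteins whose curved body of leucine-rich repeats binds collagen fibrils. Most carry chains of chondroitin, dermatan or keratan sulfate, and together they set the thickness and spacing of collagen fibrils and hold growth factors such as TGF-beta in the matrix. They are made mainly by fibroblasts, tendon cells and cells of bone and cartilage, and in skeletal muscle by the connective tissue around the fibres and by myogenic cells. Dermatopontin, the product of Dpt, is not a proteoglycan but a small tyrosine-rich matrix protein that binds decorin and promotes collagen fibril formation. Msx1 is a homeobox transcription factor of undifferentiated mesenchyme.

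Levels are FPKM (fragments mapped to a transcript, divided by its length and by the library's total) summed over the transcripts of a gene, so they are already divided by length and can be set side by side between genes. A change is the difference of mean log2(FPKM + 1), Msx1 overexpression minus control, a scale on which changes of low genes look smaller than they are. A fold is the ratio of mean FPKM. Adjusted p-values came from limma with Benjamini-Hochberg adjustment over 12371 genes, and a gene is said to have risen or fallen at an adjusted p under 0.05. Msx1 itself read 7.99, 7.13 and 7.54 FPKM in control libraries against 1004, 943.7 and 912 FPKM in libraries with forced expression. Of 8 myoblast markers, Myod1 (20.7 to 24.3 FPKM) and Des (112 to 141 FPKM) were present in every library, while Myf5 fell from 9.01 ± 0.40 to 1.64 ± 0.097 FPKM (log2 change -1.92, adjusted p = 2.77e-07) and Msc did not exceed 0.178 FPKM and was listed at 0 in every Msx1 library. FPKM hold no read numbers. A rough search for the value of 1 fragment placed depth between 18.4 and 24.1 M fragments per library, lowest in control replicate 2.

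Of the 9 genes tested, 7 rose and 2 fell with Msx1. Dpt (101.6-fold), Dcn (17.7-fold), Prelp (6.06-fold) and Fmod (3.94-fold) rose most, Bgn and Omd rose about as much as each other (2.22-fold and 2.19-fold), and Podn rose least (1.82-fold). Ogn and Aspn fell, to 0.556 and 0.551 of their control means. Dpt passed the minimum level only through its Msx1 libraries, and without it 6 of 8 rose and 2 fell. Changes were common in these libraries: 22.0% of all genes tested were called higher and 32.4% lower, or 54.4% in either direction. After median-of-ratios scaling 3321 genes were higher and 3154 lower, and with equal totals without Msx1 3503 were higher and 2807 lower, against 2718 and 4014 as deposited. The groups did not overlap for any of the 9, against 62.3% of all genes tested. A rise of at least 1 on the log2 scale is less common (4.17% of genes tested), and Dpt, Dcn, Prelp, Fmod, Bgn and Omd each had one. The median change was 1.15 over the 9 genes tested and -0.07 over all genes tested.

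**Figure D1:**
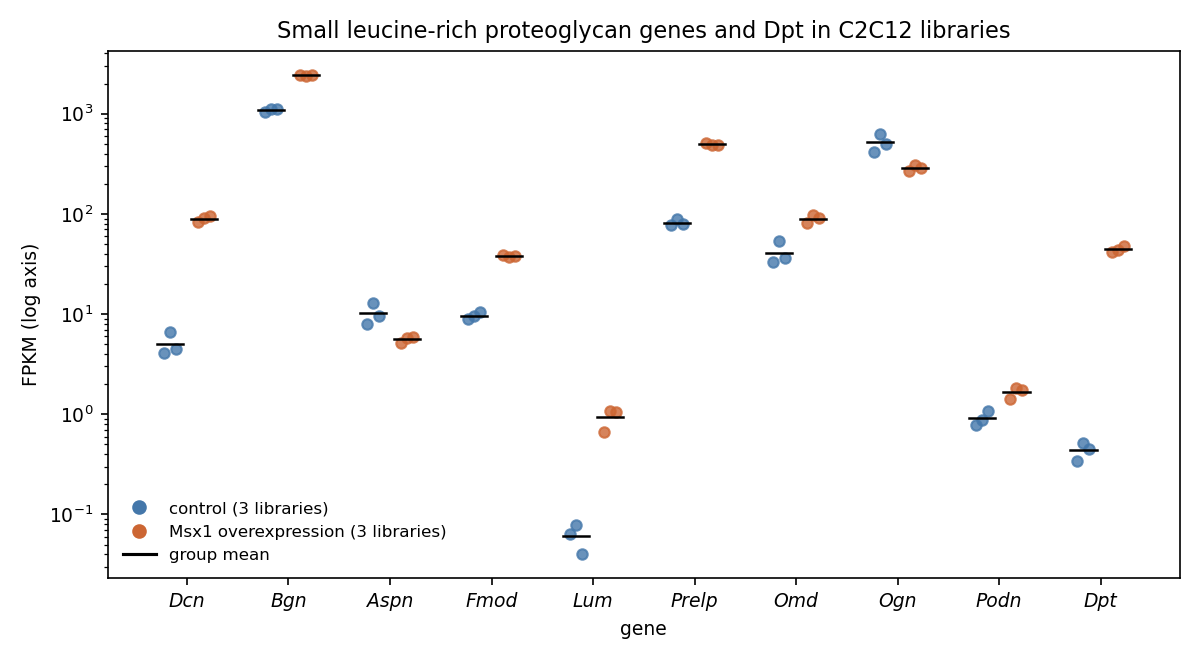
FPKM of the 10 genes (log axis) in the 3 control (blue) and 3 Msx1 overexpression (orange) libraries, with black lines at the group means. Dpt went from a mean of 0.436 to 44.3 FPKM, while Ogn and Aspn are the genes whose orange points lie below the blue ones.

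Decorin, biglycan and asporin form class I of the family. Dcn encodes decorin, which binds type I collagen and restrains TGF-beta. Dcn read 4.12, 6.62 and 4.46 FPKM in control replicates 1, 2 and 3 and 83.9, 90.4 and 94.9 FPKM in Msx1 replicates 1, 2 and 3. The lowest Msx1 library was thus far above the highest control library, control replicate 2. The mean went from 5.07 ± 1.35 to 89.7 ± 5.51 FPKM (SD, n = 3 each), with a log2 change of 3.92 (SE 0.14, 95% interval 3.60 to 4.25, limma adjusted p = 3.26e-07). Dcn has 2 transcripts in the table. The transcript NM_001190451 held 87.4%, 93.7% and 100% of Dcn in the control and 79.6%, 64.7% and 87.1% in the Msx1 libraries, and the share of NM_007833 was uneven between replicates of both groups. Reads common to both transcripts are split by StringTie's estimate, so the shares are less certain than their sum.

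Bgn, the gene of biglycan, which in muscle also binds the dystrophin-associated complex, was the most abundant of the 10 genes in both groups. Its level was 1048, 1106 and 1106 FPKM in the control and 2453, 2383 and 2414 FPKM in the Msx1 libraries. The values within each group lay close together and the groups were well apart. Mean levels were 1087 ± 33.7 and 2417 ± 35.3 FPKM (a log2 change of 1.15 with SE 0.07, limma adjusted p = 7.48e-06), and Bgn moved from rank 31 to rank 4 of all genes by mean level. Decorin and biglycan are close relatives that share collagen and TGF-beta as partners. The Dcn level was 0.465% ± 0.116 of the Bgn level in the control and 3.71% ± 0.263 in the Msx1 libraries (n = 3 each; exact two-sided permutation p = 0.1, the smallest that 3 against 3 libraries allow).

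Aspn encodes asporin, a member of the class that carries no glycosaminoglycan chain and binds TGF-beta and BMP2. Aspn read 7.95, 12.95 and 9.62 FPKM in the control and 5.12, 5.75 and 5.95 FPKM in the Msx1 libraries. The groups did not overlap, but the control libraries were uneven, with replicate 2 the highest. The mean fell from 10.2 ± 2.55 to 5.61 ± 0.43 FPKM (log2 change -0.74, SE 0.15, 95% interval -1.08 to -0.39, adjusted p = 0.00387).

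Fibromodulin, lumican, PRELP and osteomodulin belong to class II, several of whose members can carry keratan sulfate. Prelp encodes a protein with an arginine- and proline-rich end that binds heparan sulfate and is placed between basement membranes and connective tissue. Prelp read 78.4, 89.1 and 78.7 FPKM in the control and 512, 491 and 487 FPKM in the Msx1 libraries. Every Msx1 library was far above every control library, and neither group was uneven. Its mean went from 82.1 ± 6.08 to 497 ± 13.3 FPKM, a log2 change of 2.59 (SE 0.07, adjusted p = 6.65e-08), which made Prelp the 2nd most abundant of the 10 genes in the Msx1 libraries, ahead of Ogn.

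Fmod encodes fibromodulin, which regulates fibril growth in tendon. Its values were 8.84, 9.64 and 10.4 FPKM in the control and 38.9, 37.3 and 37.7 FPKM in the Msx1 libraries, tight in both groups. Means of 9.64 ± 0.79 and 37.9 ± 0.86 FPKM gave a log2 change of 1.87 (SE 0.06, adjusted p = 2.84e-07). Lum, which encodes lumican, the proteoglycan needed for corneal transparency, was almost absent. It read 0.064, 0.078 and 0.040 FPKM in the control and 0.661, 1.07 and 1.06 FPKM in the Msx1 libraries. Its mean over the 6 libraries, 0.496 FPKM, lay just under the minimum of 0.5 FPKM, so it was not tested. Without a minimum the change was 0.86 (SE 0.09, limma adjusted p = 6.62e-04), and Lum would count as an 8th gene that rose. Lumican and fibromodulin bind the same region of collagen, and Fmod was the higher of the pair in every library.

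Omd encodes osteomodulin, also called osteoadherin, a keratan sulfate proteoglycan of mineralized tissue. Omd read 33.4, 53.1 and 36.3 FPKM in the control and 80.7, 96.6 and 91.1 FPKM in the Msx1 libraries. Control replicate 2 again stood above the other controls, still below every Msx1 library. Mean Omd went from 40.9 ± 10.6 to 89.5 ± 8.06 FPKM, a log2 change of 1.13 (SE 0.16, 95% interval 0.77 to 1.5, adjusted p = 5.74e-04).

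Ogn, the class III gene of osteoglycin or mimecan, was the 2nd most abundant of the 10 genes in the control. It read 414, 634 and 503 FPKM in the control and 269, 308 and 285 FPKM in the Msx1 libraries. The control libraries spanned a wide range, and the lowest of them was above the highest Msx1 library. The mean fell from 517 ± 111 to 287 ± 19.7 FPKM (log2 change -0.83, SE 0.14, 95% interval -1.16 to -0.49, adjusted p = 0.0018). Podn, the class V gene of podocan, was low in all libraries at 0.777, 0.870 and 1.08 FPKM in the control and 1.41, 1.81 and 1.74 FPKM in the Msx1 libraries. The groups did not overlap, and the change was 0.48 (SE 0.09, adjusted p = 0.0035). The call was lost when only the most abundant transcript was used (0.65 on the log2 scale with an adjusted p of 0.104, the highest of 17 refits that began at 0.00209). Podn reads were assigned to different transcripts from library to library: NM_001285956 held 100% and 94.3% of Podn in control replicates 1 and 2 and 0% in control replicate 3.

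Dermatopontin showed the largest change of the 10 genes. Dpt read 0.342, 0.518 and 0.448 FPKM in the control and 41.7, 43.6 and 47.6 FPKM in the Msx1 libraries. It was thus barely present in each control library and well expressed in each Msx1 library. The mean rose from 0.436 ± 0.088 to 44.3 ± 3.00 FPKM (n = 3 each), with a log2 change of 4.98 (SE 0.08, 95% interval 4.80 to 5.15, adjusted p = 7.62e-09). At a control level this low, the size on the log2 scale depends on the pseudocount, and it was 6.38 with a pseudocount of 0.1. The tested genes nearest to Dpt over the 6 libraries, by Euclidean distance in log2(FPKM + 1), were Stra6 (distance 0.401), Psca (0.949) and Alpl (0.992). Stra6, the cell surface receptor for retinol-binding protein, read 0.314 ± 0.019 and 40.1 ± 1.25 FPKM. Like Dpt, Stra6 and Psca passed the minimum only through the Msx1 libraries.

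The Dpt gene lies on chromosome 1 (164796663 to 164824274, GRCm38, plus strand, 4 exons in its transcript). Its upstream sequence is shown because the gene went from near 0 to well expressed. RefSeq (GRCm38.p6) gives the following 250 bases before the annotated start, chr1:164796413-164796662, plus strand, written 5′ to 3′. Capitals mark the motifs CANNTG (the E-box that myogenic and other basic helix-loop-helix factors bind), TAATTG (a homeodomain core that Msx1 is known to bind) and TATAAA, each searched on both strands.
Dpt: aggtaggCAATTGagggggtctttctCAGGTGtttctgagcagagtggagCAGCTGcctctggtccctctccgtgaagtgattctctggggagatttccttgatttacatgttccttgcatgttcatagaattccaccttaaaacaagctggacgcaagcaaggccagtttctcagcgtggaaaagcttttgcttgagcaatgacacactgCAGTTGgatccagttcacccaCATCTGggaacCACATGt
The Dpt window held 6 CANNTG matches and no TAATTG or TATAAA match. At least 1 CANNTG match was present in 66.2% of 32851 RefSeq promoter windows of the same length, and at least 6 in 0.274%. The cutoff of 6 was taken from the Dpt window itself, so the second share is a description and not a test. A TAATTG match was present in 7.17% of windows and a TATAAA match in 12.4%. The motifs TAATTA and TGANTCA were searched too, and are present in 4.84% and 6.75% of windows. Neither matched in any window found for the listed genes or the other genes of the family. A match is a run of letters, not a shown binding site. RefSeq windows were found for 8 of the 10 genes, and the source used here held none for Dcn or Lum. Among the 8, TAATTG occurred in the Aspn window only. The many CANNTG matches of Dpt were not shared by the other genes that rose. Bgn and Fmod held 1 each, Prelp and Omd held 0, and the windows of Podn held 1 and 3. Of the genes that fell, Aspn held 1 and Ogn 3.

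**Figure D2:**
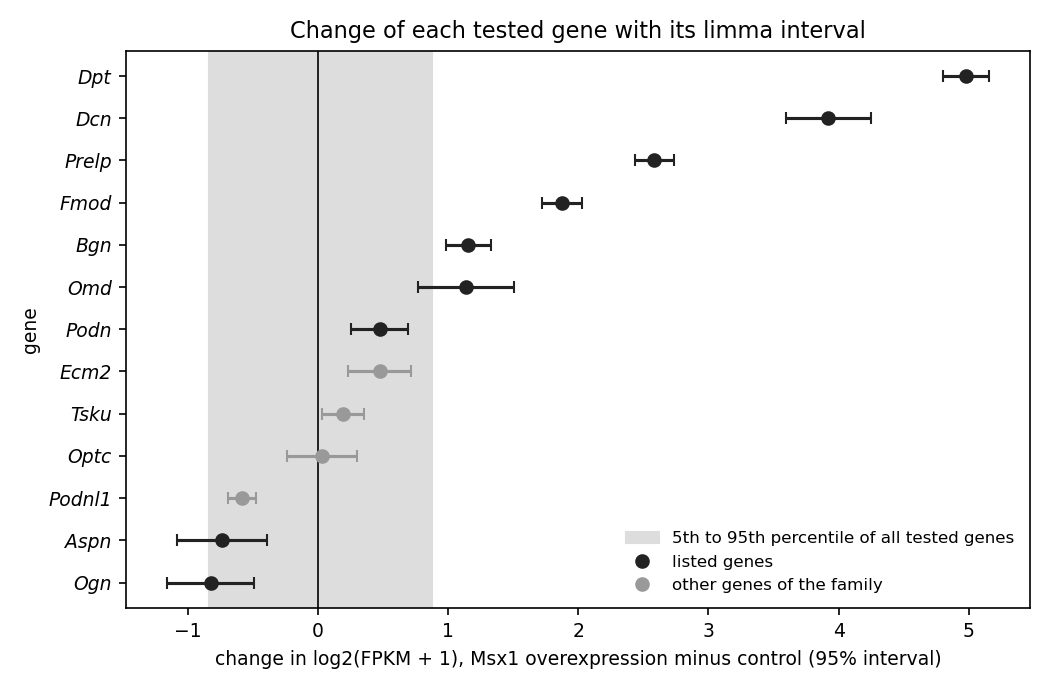
Change in log2(FPKM + 1) of each tested gene with its 95% limma interval (n = 3 libraries per group), with the listed genes in black, other genes of the family in grey and a grey band from the 5th to the 95th percentile of all tested genes. Dpt (4.98), Dcn (3.92), Prelp (2.59), Fmod (1.87), Bgn (1.15) and Omd (1.13) lie above the band, and Ogn and Aspn lie near its lower edge.

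Several of the genes are neighbours in the genome. Ecm2, Aspn, Omd and Ogn follow each other on the plus strand of chromosome 13, all within the span of Cenpp (49464025 to 49652950, GRCm38), a kinetochore gene on the minus strand. Aspn spans 49544443 to 49567565, Omd 49582462 to 49592612 and Ogn 49608015 to 49624501, so Omd starts 14.9 kb after Aspn ends and Ogn 15.4 kb after Omd ends. Directions alternated along this row: Ecm2 rose (3.40 ± 0.62 to 5.07 ± 0.26 FPKM, log2 change 0.47, adjusted p = 0.00591), Aspn fell, Omd rose and Ogn fell. Ecm2 encodes a related matrix protein with leucine-rich repeats. The host gene Cenpp fell from 7.89 ± 0.93 to 2.57 ± 0.43 FPKM (change in log2 -1.32, adjusted p = 3.38e-05). Cenpp shares no annotated exon base with Ecm2, Omd or Ogn and 7 bases with Aspn, and reads from opposite strands cannot be told apart here because no source used says that counting used strand. Nol8, the next gene past Ogn, did not pass the test (2.93 ± 0.17 and 2.69 ± 0.23 FPKM, adjusted p = 0.346).

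The upstream windows of the 3 neighbours that moved in opposite directions are shown for comparison, with the same motifs in capitals, 250 bases each before the annotated start on the plus strand. They are chr13:49544193-49544442 for Aspn, chr13:49582212-49582461 for Omd and chr13:49607765-49608014 for Ogn (RefSeq, GRCm38.p6).
Aspn: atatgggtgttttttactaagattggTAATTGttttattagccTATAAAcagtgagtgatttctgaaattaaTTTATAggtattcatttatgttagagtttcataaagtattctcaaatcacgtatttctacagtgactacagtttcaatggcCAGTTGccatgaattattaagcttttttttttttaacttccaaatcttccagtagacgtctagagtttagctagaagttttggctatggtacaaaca
Omd: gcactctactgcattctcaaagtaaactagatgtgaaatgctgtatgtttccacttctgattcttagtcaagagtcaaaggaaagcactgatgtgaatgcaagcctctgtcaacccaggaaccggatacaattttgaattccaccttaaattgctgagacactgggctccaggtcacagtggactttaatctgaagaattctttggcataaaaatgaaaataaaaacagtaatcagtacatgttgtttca
Ogn: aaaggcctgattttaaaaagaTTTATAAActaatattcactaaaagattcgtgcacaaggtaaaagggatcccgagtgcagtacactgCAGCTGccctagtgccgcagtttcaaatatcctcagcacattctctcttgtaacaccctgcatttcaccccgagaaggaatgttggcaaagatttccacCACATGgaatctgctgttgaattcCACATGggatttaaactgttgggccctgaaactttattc
Aspn and Ogn, which fell, held 2 TATAAA matches each, and those of Ogn overlap each other on opposite strands. These matches lie far from the annotated start, at -207 and -178 in Aspn and at -229 and -227 in Ogn. Aspn also held 1 TAATTG and 1 CANNTG match, Ogn held 3 CANNTG matches, and Omd, which rose, held none of these motifs. The window of Ecm2, which rose and is not printed, held none of them either. With so few windows this is a description only.

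Control replicate 2 was the highest control library for Ecm2, Aspn, Omd and Ogn, and for 8 of the 10 listed genes, while it was the highest control for 37.6% of all genes tested. The level of Omd relative to Ogn was nonetheless even within groups, at 8.08%, 8.37% and 7.21% of the Ogn level in the control and 30.02%, 31.4% and 32.0% in the Msx1 libraries. The means were 7.89% ± 0.60 and 31.1% ± 1.01 (n = 3 each; exact two-sided permutation p = 0.1). Without control replicate 2 the log2 changes were 1.33 for Omd, -0.67 for Ogn and -0.56 for Aspn, and all 3 kept their calls.

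**Figure D3:**
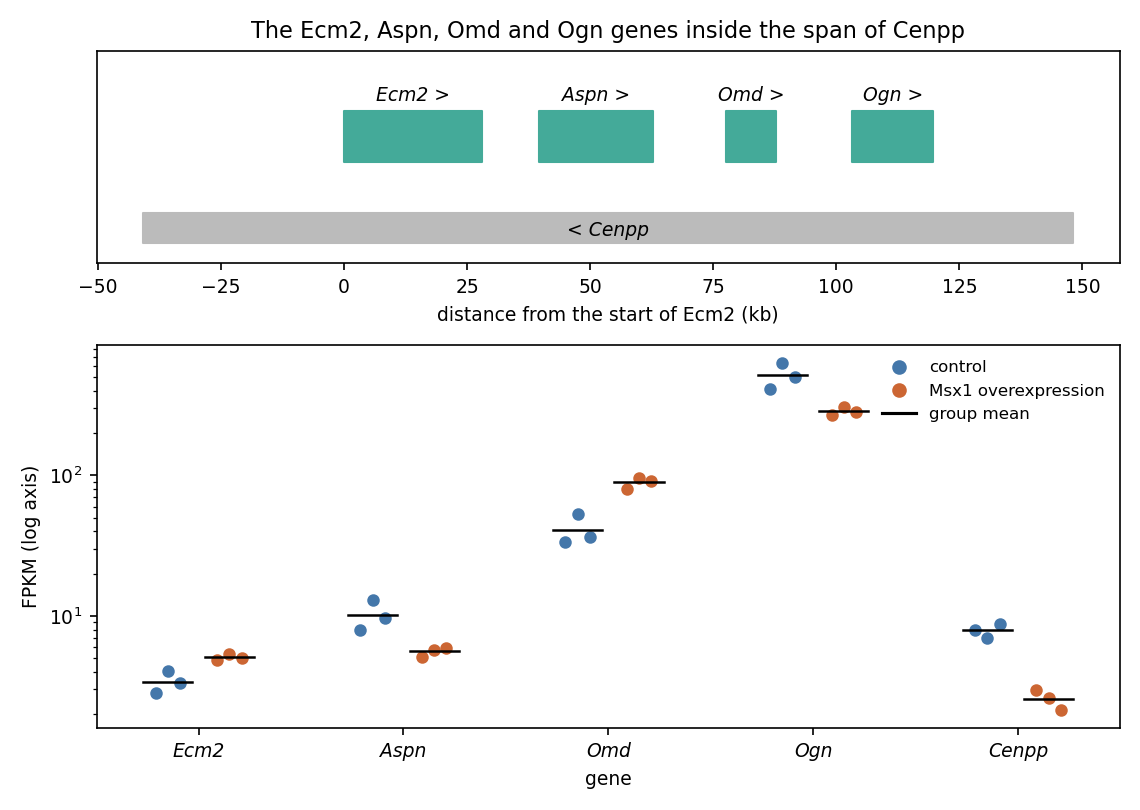
Upper panel, spans of Ecm2, Aspn, Omd and Ogn and of Cenpp by distance from the start of Ecm2 in kb, with arrowheads for the strand. Lower panel, FPKM of the same genes (log axis) in control (blue) and Msx1 overexpression (orange) libraries with group means, where Ecm2 and Omd lie higher and Aspn, Ogn and Cenpp lower with Msx1.

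On chromosome 10, Lum (97565501 to 97572703) starts 47.3 kb after Dcn (97479500 to 97518163) ends, and both were higher in every Msx1 library. Their family neighbours Kera and Epyc, known from cornea and cartilage, were listed at 0 in every library, except Epyc at 0.028 FPKM in Msx1 replicate 3. On chromosome 1, Prelp (133910304 to 133930102, minus strand) lies 107 kb from Fmod (134037254 to 134048280, plus strand), and both rose. Optc, the opticin gene 0.616 kb from Prelp, stood at 1.23 ± 0.18 and 1.29 ± 0.31 FPKM and did not pass the test (log2 change 0.03, 95% interval -0.24 to 0.30, adjusted p = 0.838), and its sign changed in 4 of 17 refits. Btg2, an antiproliferative gene on the other side of Fmod, fell (log2 change -0.78). Bgn lies on chromosome X (73483601 to 73495936) and Podn on chromosome 4 (108014793 to 108031954). Their nearest tested neighbours, Haus7 (adjusted p = 0.798) and Scp2 (adjusted p = 0.0684), did not pass the test, though Scp2 passed in 2 of 17 refits, with sample weights (log2 change -0.17, adjusted p = 0.00174) and without control replicate 1 (-0.13, adjusted p = 0.0458), in a range up to 0.894.

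Elsewhere in the family, Podnl1, the podocan-like gene, fell from 57.2 ± 0.97 to 37.9 ± 0.99 FPKM (-0.58 on the log2 scale with SE 0.05, adjusted p = 2.38e-05), opposite to its relative Podn, and its level was far above that of Podn in every library. Tsku, the gene of the secreted signalling modulator tsukushi, went from 6.16 ± 0.38 to 7.16 ± 0.43 FPKM (change in log2 0.19, adjusted p = 0.049). The Tsku call was lost in 8 of 17 refits, among them those without control replicate 2 (adjusted p = 0.0957), control replicate 3 (0.151) and Msx1 replicates 1, 2 and 3 (0.0769, 0.172 and 0.0831), in a range of 0.00182 to 0.172. Nyx stood at 0.052 ± 0.035 and 0.369 ± 0.095 FPKM and Chad at 0.179 ± 0.182 and 0.128 ± 0.009 FPKM, both under the minimum for testing. Of the 4 other family genes tested, 2 were called higher, 1 lower and 1 was not called, against 22.0% higher and 32.4% lower over all genes tested.

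Summed over the 10 genes, the level was 1595, 1913 and 1750 FPKM in the control and 3487, 3459 and 3466 FPKM in the Msx1 libraries, that is 1753 ± 159 and 3471 ± 14.6 FPKM (1.98-fold). The sum is mostly Bgn, which held 62.2% ± 4.02 of it in the control and 69.6% ± 0.73 in the Msx1 libraries. The make-up of the sum changed too: Ogn went from 29.3% ± 3.64 to 8.28% ± 0.60 of the sum, Prelp from 4.69% ± 0.21 to 14.3% ± 0.33, Dcn from 0.286% ± 0.052 to 2.59% ± 0.17 and Dpt from 0.025% ± 0.003 to 1.28% ± 0.089. The share of Omd was 2.31% ± 0.40 and 2.58% ± 0.24, with overlapping groups.

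In the control the order of levels was Bgn, Ogn, Prelp, Omd, Aspn, Fmod, Dcn, Podn, Dpt and Lum, and only the neighbours Aspn and Fmod overlapped in their range over libraries. In the Msx1 libraries it was Bgn, Prelp, Ogn, Dcn, Omd, Dpt, Fmod, Aspn, Podn and Lum, and only Dcn and Omd overlapped. Dpt climbed from 9th to 6th place and Dcn from 7th to 4th.

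**Figure D4:**
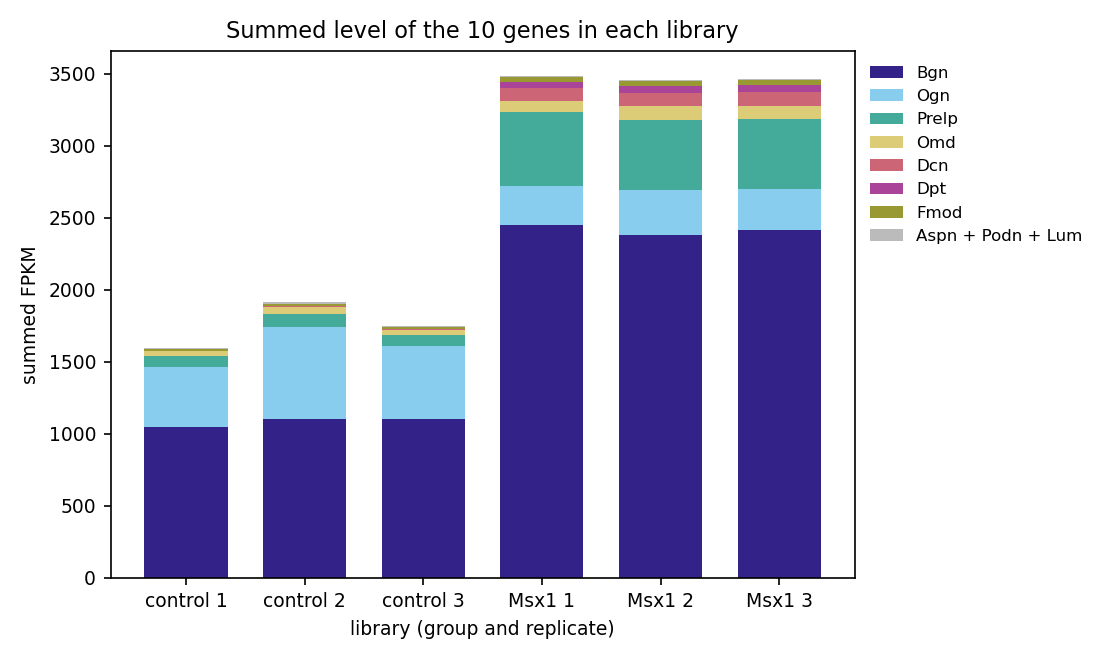
Summed FPKM of the 10 genes in each library, stacked by gene and starting at 0. The 3 Msx1 bars reach 3459 to 3487 FPKM against 1595 to 1913 FPKM in the control, with a larger Prelp part and a smaller Ogn part.

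The chains on these core proteins are built by enzymes outside the family. Of 10 tested genes for the linker and the chondroitin backbone, 1 rose, 4 fell and 5 were not called (median change -0.05). Over all genes tested, 22.0% were called higher and 32.4% lower, with a median change of -0.07. The counts of this list and those below stand beside these shares. Csgalnact1, which starts the chondroitin chain, stood at 13.7 ± 1.30 and 2.97 ± 0.30 FPKM, a fall (change of -1.89, SE 0.09, adjusted p = 1.43e-06). The polymerizing enzyme genes Chpf2 (log2 change -0.32) and Chsy1 (-0.25) fell by small amounts and Chpf rose by 0.25. The Chsy1 call was lost with equal totals without Msx1 (adjusted p = 0.0886). The Chpf call was lost without control replicate 2 (0.0503), control replicate 3 (0.0708) and Msx1 replicate 1 (0.0755), and with the most abundant transcript (0.0562). Xylt2, one of the enzymes that attach the first sugar, stood at 14.5 ± 0.63 and 14.5 ± 0.39 FPKM, and its partner Xylt1 was listed at 0 in every library.

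Of 17 tested genes that modify or feed chondroitin, dermatan and keratan sulfate chains, 7 rose, 5 fell and 5 were not called (median change 0.11). Papss2 passed the minimum only through the control libraries, and without it 7 of 16 rose and 4 fell. B3gnt2 and B4galt1, which add the alternating sugars of keratan sulfate and of other lactosamine chains, rose from 17.6 ± 0.58 to 62.2 ± 0.80 FPKM (change in log2 1.76, adjusted p = 8.96e-08) and from 52.3 ± 2.68 to 98.2 ± 0.62 FPKM (0.90, adjusted p = 4.42e-06). Ugdh, which makes the UDP-glucuronic acid used for chondroitin and dermatan chains, fell from 125 ± 5.62 to 70.7 ± 2.90 FPKM (change in log2 -0.81, adjusted p = 1.1e-05). The genes of the sulfate donor, Papss1 (59.05 ± 3.18 to 40.5 ± 0.68 FPKM) and Papss2 (1.74 ± 0.23 to 0.487 ± 0.089 FPKM), fell as well, the latter with the limit just given. The enzymes that form dermatan, Dse (27.6 ± 2.98 and 29.3 ± 0.25 FPKM) and Dsel (5.997 ± 0.78 and 6.51 ± 0.44 FPKM), did not pass the test, while Chst14, which adds sulfate to dermatan, rose from 24.5 ± 0.45 to 29.8 ± 0.54 FPKM.

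Collagens and other matrix partners moved in both directions: 10 of 18 tested rose, 6 fell and 2 were not called (median change 0.34). Eln, Tnxb and Comp passed the minimum only through the Msx1 libraries, and without them 7 of 15 rose and 6 fell. The median of those 15 was the change of Col6a3, -0.04, against -0.07 over all genes tested. The median of 0.34 thus rests on the inclusion of Eln, Tnxb and Comp. The fibril-forming chains Col3a1 (724 ± 46.2 to 417 ± 8.39 FPKM, log2 change -0.79, adjusted p = 3.86e-05), Col5a2 (-0.57) and Col1a2 (-0.55) fell, while Col1a1 rose by 0.24. Col14a1, whose product sits on fibril surfaces, rose from 3.77 ± 0.43 to 24.2 ± 0.45 FPKM (change in log2 2.40, adjusted p = 1.68e-07), the microfibril chain Col6a2 from 156 ± 4.29 to 391 ± 7.49 FPKM (1.32) and Ccn4, whose product binds decorin and biglycan, from 29.5 ± 3.04 to 80.8 ± 3.68 FPKM (1.43). Eln, the elastin gene, read 0.021 ± 0.019 and 4.84 ± 0.26 FPKM (change in log2 2.51, adjusted p = 1.05e-07).

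Among receptors and growth factors that bind these proteins, 7 of 15 tested rose, 3 fell and 5 were not called (median change 0.14). Tlr2, a receptor for soluble biglycan, fell from 41.1 ± 2.17 to 14.4 ± 0.17 FPKM (change in log2 -1.45, adjusted p = 4.48e-07), and Tlr4, the other such receptor, did not pass (12.98 ± 2.16 and 10.7 ± 0.66 FPKM, adjusted p = 0.0895). Egfr, to which decorin binds, fell from 19.1 ± 1.84 to 8.85 ± 0.34 FPKM, while Igf1r of the same list rose from 6.59 ± 0.66 to 13.6 ± 1.00 FPKM. The ligand genes Tgfb1 and Tgfb3 rose from 42.0 ± 2.72 to 81.1 ± 2.62 FPKM (change in log2 0.93, adjusted p = 7.05e-06) and from 63.5 ± 1.07 to 102 ± 2.33 FPKM (0.68, adjusted p = 9.72e-06), and Tgfb2 stood at 8.19 ± 0.38 and 9.10 ± 0.095 FPKM and did not pass.

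Of 9 tested genes of enzymes that process the family and of their helper, 6 rose, 2 fell and 1 was not called (median change 0.56). Htra1, a secreted serine protease, rose from 54.2 ± 4.27 to 139 ± 5.04 FPKM (change in log2 1.35, adjusted p = 1.93e-06) and Pcolce, which enhances procollagen cleavage, from 528 ± 0.97 to 833 ± 10.4 FPKM (0.66, adjusted p = 4.45e-05). Bmp1, the protease that removes the propeptide of probiglycan, rose from 56.4 ± 3.02 to 83.6 ± 0.14 FPKM. Adamts1 fell from 9.41 ± 0.37 to 4.24 ± 0.23 FPKM (change in log2 -0.99, adjusted p = 7.1e-06). Tll1 passed the minimum only through the Msx1 libraries, and without it 5 of 8 rose.

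**Figure D5:**
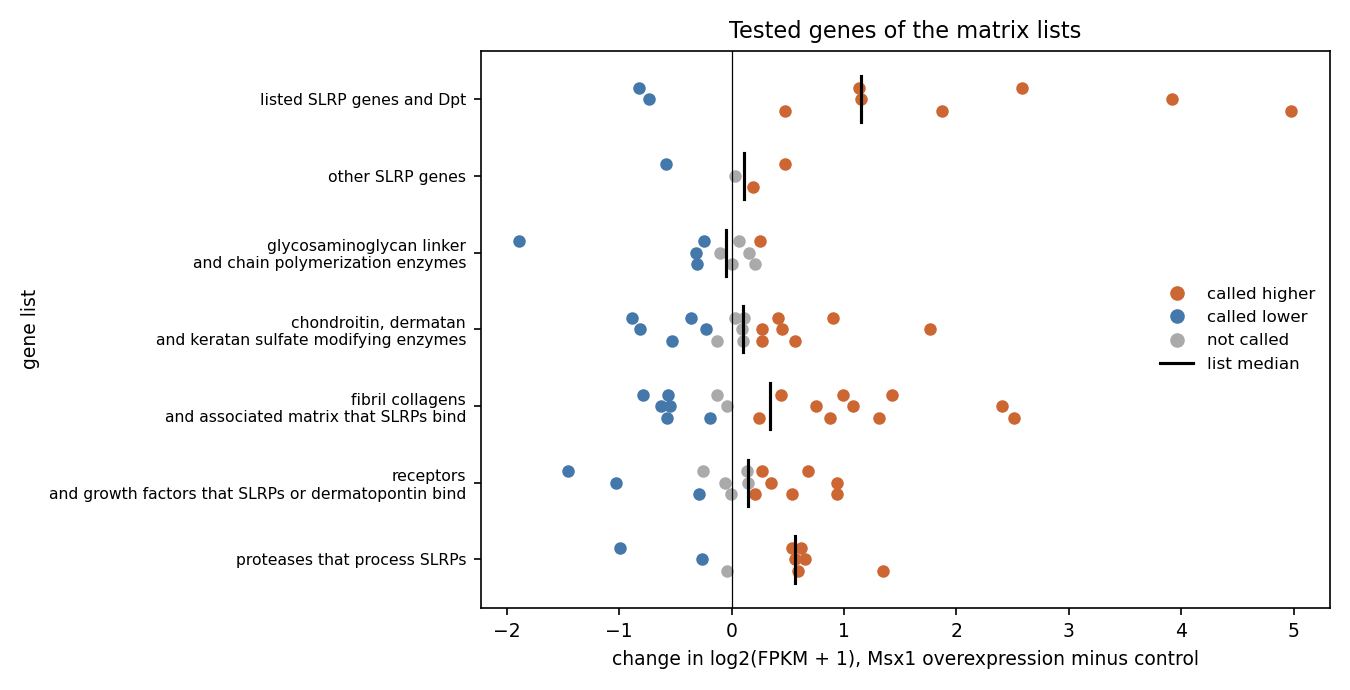
Change in log2(FPKM + 1) of each tested gene in 7 lists (orange, called higher; blue, called lower; grey, not called), with a black line at the list median. The listed genes reach 4.98 (Dpt), while the list of linker and backbone enzymes is centred at -0.05 and reaches down to -1.89 (Csgalnact1). The medians include genes that passed the minimum only through their Msx1 or only through their control libraries.

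Markers of other cell types moved in both directions, in libraries where 22.0% of all genes tested were called higher and 32.4% lower. Of 8 fibroblast markers 5 were tested, 4 rose and 1 fell, and their summed level was 471 to 536 FPKM in the control and 881 to 927 FPKM in the Msx1 libraries, mostly Ly6a. Pdgfrb rose from 74.6 ± 1.94 to 225 ± 5.16 FPKM and Pdgfra fell from 18.7 ± 1.84 to 8.84 ± 0.58 FPKM, while Tcf21 was listed at 0 and Thy1 and Dpp4 did not exceed 0.08 FPKM in any library. Of 5 tendon cell markers Scx rose (log2 change 0.73), Egr1 fell (-2.41), Mkx was not called and Tnmd and Thbs4 were at or near 0, with sums of 201 to 256 and 152 to 168 FPKM. Of 6 osteoblast markers the 3 tested rose. Among those not tested, Dmp1 was lower with Msx1 (0.288 ± 0.073 and 0.150 ± 0.015 FPKM) and Sp7 stood at 0.106 ± 0.027 and 0.153 ± 0.012 FPKM. Ibsp was listed at 0 in every library. The sums were 18.2 to 19.6 and 82.9 to 87.3 FPKM, with Alpl the main part in the Msx1 libraries. Of 8 myoblast markers 7 were tested, 1 rose and 3 fell, with sums of 254 to 258 and 221 to 232 FPKM; Des was among those that fell. Of 6 genes of differentiated muscle the 4 tested rose, with sums of 14.4 to 15.5 and 42.95 to 47.8 FPKM. Among those not tested, Myh3 was higher with Msx1 (0.142 ± 0.090 and 0.364 ± 0.038 FPKM). Ckm was lower on average, with overlapping groups (0.211 ± 0.074 and 0.110 ± 0.078 FPKM). Sox9, the only one of 5 chondrocyte markers tested, was not called (22.95 ± 0.24 and 23.5 ± 1.47 FPKM), and the list summed to 23.3 to 23.8 and 22.2 to 24.96 FPKM. Pparg, the only one of 5 adipocyte markers tested, fell from 4.4 ± 0.36 to 1.315 ± 0.042 FPKM. Adipoq was listed at 0 in each control library and read 0.270, 0.820 and 0.590 FPKM in the Msx1 libraries. Plin1, Cidec and Lep were listed at 0 in every library, and the sums were 4.15 to 4.81 and 1.55 to 2.12 FPKM. Of 5 macrophage markers, Lyz2 rose from 10.3 ± 0.99 to 22.4 ± 2.22 FPKM, Cd68 fell from 3.00 ± 0.37 to 1.05 ± 0.11 FPKM, Csf1r was at 0.272 ± 0.063 and 0.214 ± 0.047 FPKM, and Ptprc and Adgre1 were listed at 0 in every library, with sums of 12.04 to 14.7 and 21.4 to 25.8 FPKM. None of 5 endothelial markers reached the minimum for testing, with sums of 0.220 to 0.269 and 0.523 to 0.936 FPKM. The part of such cell states in the changes of the proteoglycan genes was not tested, and in these bulk samples a different number of cells of a type and a different amount of RNA per cell cannot be told apart.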

How the data were processed

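RNA from C2C12 cells was sequenced in 6 libraries, 3 per group. The authors deposited 1 table of FPKM per RefSeq transcript. The build was GRCm38 (mm10) and the tools were Trimmomatic, HISAT2 and StringTie, per the submitters' processing notes, without versions or settings in the sources used here. The labels' protocols name Trizol and a NEBNext Ultra kit. Because FPKM are scaled to the library total, a shift in abundant transcripts moves all others. Control columns, headed by the name of a vector, were matched to control titles by number.

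Of 38468 transcripts 38193 were named by a RefSeq gene table (GRCm38.p6), 156 by GENCODE, and 119 kept their own identifier. FPKM were summed to 24809 genes. Log2(FPKM + 1) was tested with limma (version 3.58.1, R 4.3.3), with a trend in the prior variance, for genes averaging 0.5 FPKM or more over the 6 libraries, and the script was tested on simulated data. Alternatives changed the pseudocount, filter, scaling, test, transcript summing, replicate block and the libraries used. In the search for depth (10 to 30 M fragments) only 35.2% to 39.8% of low values came within 0.1 of whole fragments, so whole reads were not recovered. The genes and lists were chosen with earlier results of these data known. Named were the 10 genes, the rest of the family and most of their neighbours in the table. From each list the 3 genes with the smallest adjusted p were named, and the first called in the opposite direction. The neighbours Mir3966, 4930473O22Rik, Atp2b3 and Slc1a7 did not reach the minimum for testing and were not described. Col1a2, Col5a2, Col1a1, Ccn4, Egfr, Igf1r, Tgfb2, Tlr4, Papss1, Papss2, Dse, Dsel, Chst14, Xylt1, Xylt2 and Bmp1 were named after their values were seen, as were the marker genes given singly and the motifs.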

Additional observations from a re-analysis of the deposited data

How the results depend on the processing

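Over 17 alternatives, 152 of 153 refits of the 9 tested genes kept direction and call, and the exception was Podn with the most abundant transcript. The number of these genes called higher was 6 to 8 and the number called lower was 2 in each of the 17 alternatives. The 8 includes Lum, which was tested in 6 of them: without a filter, with median-of-ratios scaling, with equal totals without Msx1 and without each control replicate. Where a minimum applied, Lum passed it only through its Msx1 libraries (as deposited, control mean 0.061 and Msx1 mean 0.931 FPKM). Leaving out each library in turn gave 5581 to 7090 calls over all genes. Optc reversed to -0.084 with the most abundant transcript, to -0.0157 without control replicate 1, to -0.0218 without Msx1 replicate 1 and to -0.0315 without Msx1 replicate 3 (leave-one-out range -0.0315 to 0.1471). Haus7, at -0.03 as deposited, reversed to 0.0446, 0.0119 and 0.0787 under median-of-ratios, quantile and equal-total scaling, to 0.056 without control replicate 1 and to 0.0054 without Msx1 replicate 2 (leave-one-out range -0.10 to 0.056). Neither gene was called in any of these, and the cause was not tested.

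The groups share replicate numbers, but deviations of same-numbered libraries correlated at 0.0553, 0.226 and 0.0366, so the numbers were not taken as pairs, and 4 of 6 libraries correlated best with their own number. With the replicate block 6747 genes were called against 6732 without it (2692 higher and 4055 lower), and 7 of the listed genes were higher and 2 lower, as without the block. Tsku lost its call with the block (adjusted p = 0.0687). Depth limits the lowest levels most, here those of Lum, of Podn and of Dpt in the control, on which the fold of Dpt rests.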

Other observations

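The nearest genes with a row in the table beside Dpt are the predicted genes Gm26685 and Gm20743. Gm20743, which starts 38.9 kb past the end of Dpt on chromosome 1 (164863121 to 164871438, GRCm38), read 0.083, 0.315 and 0.172 FPKM in control libraries against 1.24, 1.18 and 1.10 FPKM with Msx1 (limma log2 change 0.87, SE 0.09, adjusted p = 1.14e-04). The gene passed the minimum of 0.5 FPKM only through its Msx1 libraries, so a difference was built into its selection, and with a minimum of 1 FPKM it was not tested. Gm26685, 282 kb before Dpt, was listed at 0 in each control library, read 0.076, 0.022 and 0.047 FPKM with Msx1, and was not tested.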
